A study of Mus musculus with 9 samples.

Results

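The GIMAP genes (GTPases of immunity-associated proteins) were followed in MYCN-driven mouse T cell lymphoma and in control CD4 T cells. Members were the rows of the deposited count table whose symbol was Gimap1, Gimap3, Gimap4, Gimap5, Gimap6, Gimap7, Gimap8 or Gimap9, which gave 8 of the 46078 genes in the table, and all 8 passed the filter on low counts. The lymphoma group held 6 libraries (numbered 34, 53, 56, 70, 72 and 86 in the labels) of MYCN-induced lymphoma cells from the thymus of C57BL/6J mice. The control group held 3 libraries (1, 2 and 3) of CD4+ T cells from the spleen of the same strain. Library preparation read the 3′ ends of transcripts. The labels used here name no promoter or Cre driver for MYCN, no age and no treatment, and they do not say whether animals were pooled or whether the libraries came from separate animals. P-values therefore measure the spread between these libraries, which may be technical in part.

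GIMAP proteins share a GTP-binding domain of the AIG1 type and are made mainly in lymphocytes, T and B cells alike. Several of them sit on intracellular membranes, and loss of Gimap5 or Gimap1 in rodents depletes mature T cells. The genes lie side by side in mammals, and the levels of several of them change as thymocytes mature. The study set the lymphoma against CD4 T cells as its control, and the comparison gives the level of each gene in one relative to the other.

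The 8 genes occupied 123.6 kb of chromosome 6 (GRCm38, 48647234 to 48770851, GENCODE release M21), in the order Gimap8, Gimap9, Gimap4, Gimap6, Gimap7, Gimap1, Gimap5 and Gimap3. All 8 are annotated as protein coding, 6 on the plus strand and 2 (Gimap6 and Gimap3) on the minus strand. Among the 28 pairs of members, the longest coding sequences of Gimap5 and Gimap3 were the most alike, with 90.4% identity over 895 aligned bases. The next pair, Gimap9 and Gimap7, had 66.6% over 859 bases. Of the 50-base words in Gimap3 transcripts, 7.52% also occurred in Gimap5 transcripts, and reads from those stretches can be lost to both genes because reads with several alignments were not counted. Gimap1 is further crossed by the antisense gene Gimap1os, which lies over 36.0% of its exonic bases, and since the strand setting of the counting is not stated, reads of the pair may not be told apart. A readthrough gene, Gm28053, shares 3.48% of the exonic bases of Gimap7, 6.44% of Gimap1 and 3.69% of Gimap5, and had at most 5 counts in any library.

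The 250 bases before the RefSeq start site (GRCm38.p6) were taken for all 8 members (Gimap8 has 2 start sites and so 2 windows). Windows of 4 members are shown. They pair the strongest fall with the member whose level did not pass the test between groups (Gimap4 and Gimap9), and the closest paralogues (Gimap5 and Gimap3). Positions are chr6:48684328-48684577 for Gimap4, chr6:48675885-48676134 for Gimap9, chr6:48745947-48746196 for Gimap5, all on the plus strand, and chr6:48770852-48771101 on the minus strand for Gimap3. Each is written 5′ to 3′ in the direction of its gene, and capitals mark the motif matches described after them.
Gimap4: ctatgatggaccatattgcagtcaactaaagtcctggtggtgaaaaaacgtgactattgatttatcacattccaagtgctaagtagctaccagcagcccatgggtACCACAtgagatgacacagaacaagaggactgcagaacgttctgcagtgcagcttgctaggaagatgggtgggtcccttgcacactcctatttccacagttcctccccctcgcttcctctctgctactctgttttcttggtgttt
Gimap9: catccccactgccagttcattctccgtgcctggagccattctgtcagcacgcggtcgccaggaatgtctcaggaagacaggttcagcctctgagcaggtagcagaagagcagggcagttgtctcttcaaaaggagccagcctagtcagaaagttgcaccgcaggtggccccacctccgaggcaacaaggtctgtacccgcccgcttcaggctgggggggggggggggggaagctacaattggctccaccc
Gimap5: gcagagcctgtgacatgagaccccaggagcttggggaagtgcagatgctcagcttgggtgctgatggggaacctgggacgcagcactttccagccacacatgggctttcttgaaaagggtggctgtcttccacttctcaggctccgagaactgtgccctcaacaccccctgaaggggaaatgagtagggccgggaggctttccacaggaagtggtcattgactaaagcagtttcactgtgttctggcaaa
Gimap3: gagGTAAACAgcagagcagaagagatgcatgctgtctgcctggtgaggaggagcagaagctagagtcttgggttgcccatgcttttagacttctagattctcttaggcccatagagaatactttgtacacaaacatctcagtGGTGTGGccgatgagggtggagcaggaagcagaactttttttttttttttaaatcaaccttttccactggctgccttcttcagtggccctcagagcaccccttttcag

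Both strands were searched for CACGTG (the E-box bound by MYC proteins), TGTGGT (RUNX), CCGGAAG (ETS), TGTTTAC (FOXO) and CCACACC (KLF), of which TGTGGT can overlap the reverse of CCACACC. The E-box was in the window of 0 of the 8 members and in 6.02% of 32851 promoter windows of the same length. TGTGGT was in the windows of Gimap1, Gimap4 and Gimap7 (14.0% of all windows), on the minus strand relative to the gene in each, and begins 145 bases before the start site of Gimap4 as ACCACA. Gimap3 had a FOXO match (3.17% of all windows) and a KLF match (6.52%), and the ETS letters were in no member's window (6.91%). Gimap5, Gimap6, Gimap8 and Gimap9 had no match to any of the 5 motifs. These are matches of letters in a short window, and binding was not measured.

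Facts of the whole series bear on every value that follows. Counts in genes ranged from 11170704 to 15769679 per lymphoma and from 8099960 to 10808828 per CD4 library, so that 3 counts, the limit that a count of 0 allows, stood at 0.184 to 0.274 CPM in lymphoma and 0.275 to 0.360 CPM in CD4. CPM is counts per 1000000 of the library size after TMM scaling. Lymphoma 53 stood apart, with a Pearson r of 0.884 to 0.900 across genes (log2 CPM) to the other lymphomas, which correlated at 0.939 to 0.980 among themselves. Mouse Mycn had at most 3 counts in a lymphoma and 6 in a CD4 library, so the driver did not check the labels. Ddx3y, a Y-linked gene, averaged 149 CPM in lymphoma and 0.548 CPM in CD4, and Xist 7.98 and 547 CPM, so group, tissue and sex cannot be told apart. In these bulk libraries, fewer cells of a type and less RNA per cell cannot be told apart either.

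Across the family, 7 of 8 members fell in lymphoma and 0 rose by edgeR's quasi-likelihood test with a Benjamini-Hochberg adjusted p under 0.05 over 15401 tested genes. Of all tested genes 21.9% were called lower, 24.7% higher and 46.6% in either direction. The exception was Gimap9. The median log2 fold change (lymphoma over CD4) of the 8 members was -2.62, beside 0.04 over all tested genes. In 7 members every lymphoma lay below every CD4 library, which held for 22.3% of tested genes, and in 0 members did every lymphoma lie above every CD4 library, against 22.6%. Summed over the members, the level was 467 to 763 CPM in the lymphomas (645 ± 106 SD, n = 6) and 2302 to 2854 CPM in CD4 (2504 ± 304 SD, n = 3), 3.88-fold higher in CD4. Among the 7 that fell, the ratio of group means ran from 1.89-fold in Gimap5 to 40.0-fold in Gimap4.

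**Figure D1:**
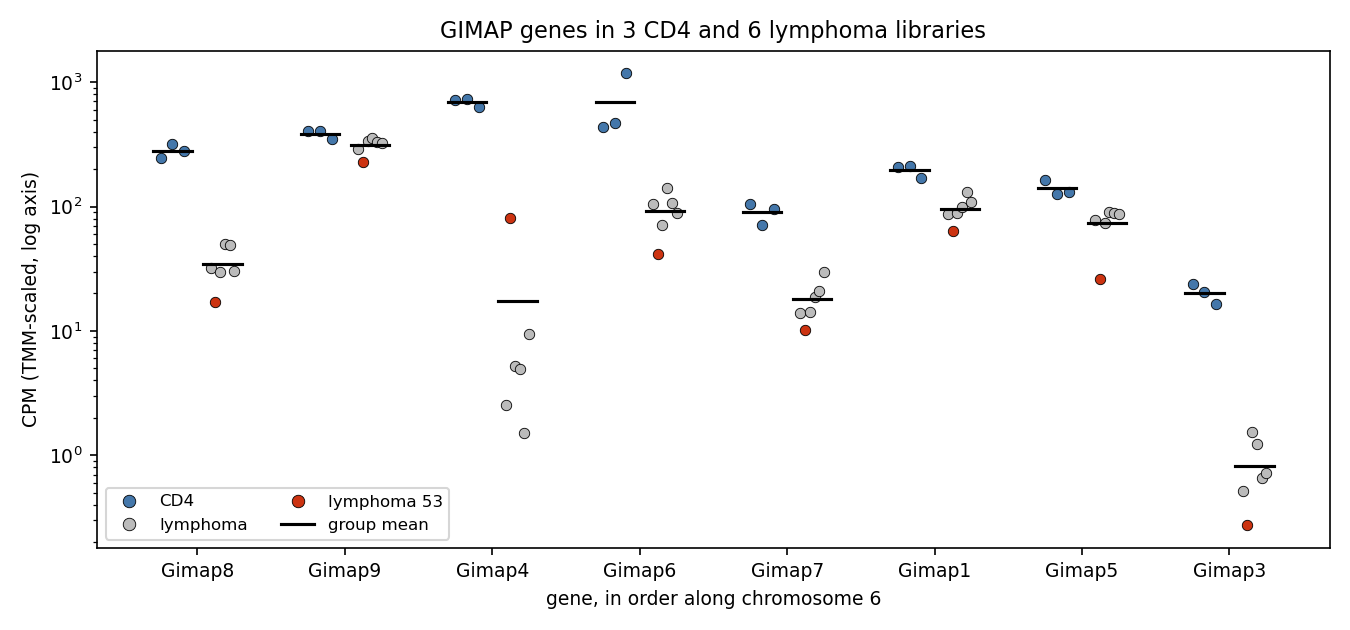
Level of each GIMAP gene in CPM (log axis) in 3 CD4 libraries (blue) and 6 lymphomas (grey, with lymphoma 53 in red); black bars are group means. The groups meet only at Gimap9, and lymphoma 53 is the lowest lymphoma for 7 genes and the highest for Gimap4.

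Gimap4, a protein tied to the execution of T cell death, had the largest fall. CD4 libraries 1, 2 and 3 had 719, 737 and 634 CPM. Lymphomas 34, 56, 70, 72 and 86 had 2.51, 5.24, 4.90, 1.51 and 9.46 CPM, and lymphoma 53 had 80.9 CPM. All lymphomas were below all CD4 libraries, but lymphoma 53 lay far above the other 5. The log2 fold change of Gimap4 was -5.34 (SE 1.21, edgeR adjusted p 0.00666), and without lymphoma 53 it was -7.21. The CD4 mean of 696 ± 55.1 CPM (SD, n = 3) was 40.0-fold the lymphoma mean of 17.4 ± 31.2 CPM (SD, n = 6), and 147-fold the mean of the 5 lymphomas without 53 (4.72 ± 3.08 CPM).

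Gimap3 and Gimap5 are the close paralogues whose coding sequences were nearly alike, and they moved by different amounts. Gimap3, linked in mice to the sorting of mitochondrial DNA in blood cells, had 23.9, 20.4 and 16.3 CPM in CD4 1, 2 and 3. Its lymphoma levels ran from 0.274 CPM (lymphoma 53, where it had 3 counts) over a median of 0.688 to 1.53 CPM (lymphoma 56). No lymphoma came near a CD4 library, and the log2 fold change was -4.60 (SE 0.451, edgeR adjusted p 1.03e-05). Gimap5, a lysosomal protein whose loss shortens the life of T cells, had 164, 125 and 130.3 CPM in CD4 and from 26.1 CPM (lymphoma 53) over a median of 82.2 to 90.6 CPM (lymphoma 70) in lymphoma. The groups were apart by a narrow gap, and 5 of the 6 lymphomas lay between 73.6 and 90.6 CPM. The log2 fold change of Gimap5 was -0.92 (SE 0.305, edgeR adjusted p 0.0273). That call was lost when lymphoma 34, lymphoma 56 or any single CD4 library was left out (edgeR adjusted p 0.0523 to 0.123). In those fits the fall stayed between 0.77 and 0.99 on the log2 scale. Without lymphoma 53, the lowest library, the log2 fold change of Gimap5 was -0.75 (SE 0.138, edgeR adjusted p 0.000717).

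Gimap9, whose function is less well described than that of its neighbours, was the member kept nearest to its CD4 level. It had 403, 403 and 350.2 CPM in CD4 1, 2 and 3, and 227 CPM (lymphoma 53), a median of 329 and 357 CPM (lymphoma 70) in lymphoma. The groups overlapped, since lymphoma 70 exceeded CD4 3. The log2 fold change of Gimap9 was -0.31 (SE 0.160, edgeR adjusted p 0.136), and over 19 alternatives it stayed between -0.41 and -0.24 without passing the threshold. Its spread among lymphomas was small, with the highest library 1.57-fold the lowest, while that ratio was 53.8 for Gimap4. The next gene on the chromosome after Gimap9 is Gimap4, so the smallest and the largest change stood at adjacent genes.

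Gimap1, needed for the upkeep of peripheral T and B cells, had 209, 213 and 171 CPM in CD4 and 63.6 CPM (lymphoma 53), a median of 94.2 and 129.8 CPM (lymphoma 72) in lymphoma. All lymphomas were below all CD4 libraries. The log2 fold change was -1.04 (SE 0.201, edgeR adjusted p 0.00128). Its antisense neighbour Gimap1os fell too, by 2.74 on the log2 scale (SE 0.210, edgeR adjusted p 1.63e-06). Gimap1os had 209, 267 and 174 CPM in CD4, and between 26.2 and 48.0 CPM in lymphoma.

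Gimap6, a partner of the autophagy protein GABARAPL2, had 433 and 467 CPM in CD4 1 and 2 but 1176 CPM in CD4 3. Lymphoma levels ran from 41.3 CPM (lymphoma 53) over a median of 97.0 to 141 CPM (lymphoma 70). Every lymphoma was below every CD4 library, and CD4 3 was 2.71-fold the lowest CD4 library. The log2 fold change of Gimap6 was -2.91 (SE 0.379, edgeR adjusted p 0.000120), and without CD4 3 it was -2.27.

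Gimap8, which carries repeated GTPase domains, and Gimap7, whose GTP hydrolysis depends on dimers, completed the cluster. Gimap8 had 243, 320.4 and 281 CPM in CD4 1, 2 and 3, and 17.2 CPM (lymphoma 53), a median of 31.4 and 50.2 CPM (lymphoma 70) in lymphoma. Its log2 fold change was -3.02 (SE 0.277, edgeR adjusted p 6.42e-06). Both groups were tight relative to the gap between them. Gimap7 had 105, 71.5 and 96.1 CPM in CD4, and 10.1 CPM (lymphoma 53), a median of 16.5 and 29.7 CPM (lymphoma 86) in lymphoma. The log2 fold change of Gimap7 was -2.34 (SE 0.283, edgeR adjusted p 4.53e-05), again with no overlap.

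Lymphoma 53 had the lowest level of 7 members (Gimap1, Gimap3, Gimap5, Gimap6, Gimap7, Gimap8 and Gimap9) and the highest level of the remaining one, Gimap4. Over all tested genes, lymphoma 53 was the lowest lymphoma at 31.2% and the highest at 30.5%. Its Gimap5 level of 26.1 CPM stood below the 73.6 to 90.6 CPM of the other 5. The summed level of markers of mature recirculating T cells was 1065 CPM in lymphoma 53 and 516 to 687 CPM in the other lymphomas, that of T cell defining markers 4872 and 2753 to 3506 CPM, and that of B cell markers 66.9 and 23.6 to 38.9 CPM. Lymphoma 53 also had the highest summed NK cell markers (847 CPM, beside 345 to 656) and endothelial markers (104 CPM, beside 77.8 to 94.6), but not myeloid markers (230.4 CPM, beside 68.7 to 2199). The part of these differences in the Gimap4 level of lymphoma 53 was not tested. At 4 members (Gimap5, Gimap6, Gimap8 and Gimap9) lymphoma 70 was the highest of the lymphomas.

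The makeup of the family was then compared as the share of each member in the summed GIMAP counts of a library, which needs no scaling between libraries. Gimap9 made up 48.5% ± 2.97 (SD, n = 6) of these counts in lymphoma and 15.6% ± 2.91 (SD, n = 3) in CD4, and the ranges, 45.4 to 54.1% and 12.3 to 17.5%, did not meet. Gimap4 made up 3.47% ± 6.80 in lymphoma and 28.2% ± 5.22 in CD4, with 17.3% in lymphoma 53 and 0.207 to 1.39% in the other lymphomas. Gimap1 had a larger share in lymphoma (14.8% ± 1.77) than in CD4 (8.03% ± 1.78). Shares of Gimap8 (5.25% ± 1.20 and 11.3% ± 1.99), Gimap6 (14.0% ± 3.59 and 26.6% ± 12.6) and Gimap3 (0.124% ± 0.0689 and 0.825% ± 0.235) were smaller in lymphoma. The Gimap6 share was 41.2% in CD4 3 and 18.8 and 19.8% in the other CD4 libraries, and without CD4 3 its difference moved from -12.7 to -5.37 percentage points.

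For these 6 members the exact two-sided permutation p was 0.0238, the smallest that 6 and 3 libraries allow, and 0.0317 after Benjamini-Hochberg adjustment over the 8 members. Gimap5 did not pass (11.2% ± 2.75 in lymphoma, 5.67% ± 1.33 in CD4, exact permutation p 0.0476, adjusted 0.0544). Without lymphoma 53 the difference of Gimap5 grew from 5.49 to 6.61 percentage points and passed (exact permutation, adjusted p 0.0408). Gimap7 did not pass either (2.73% ± 0.831 and 3.66% ± 0.812, exact permutation p 0.190, which the adjustment left unchanged). Without lymphoma 86 the difference of Gimap7 was -1.25 percentage points and passed (exact permutation, adjusted p 0.0408). Each time the library left out was the one whose share stood farthest from the other lymphomas. With 5 lymphomas no exact permutation p under 0.0357 is possible. Shares add up to the whole, so a larger share of Gimap9 and Gimap1 does not mean a higher level: both had lower mean levels in lymphoma.

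**Figure D2:**
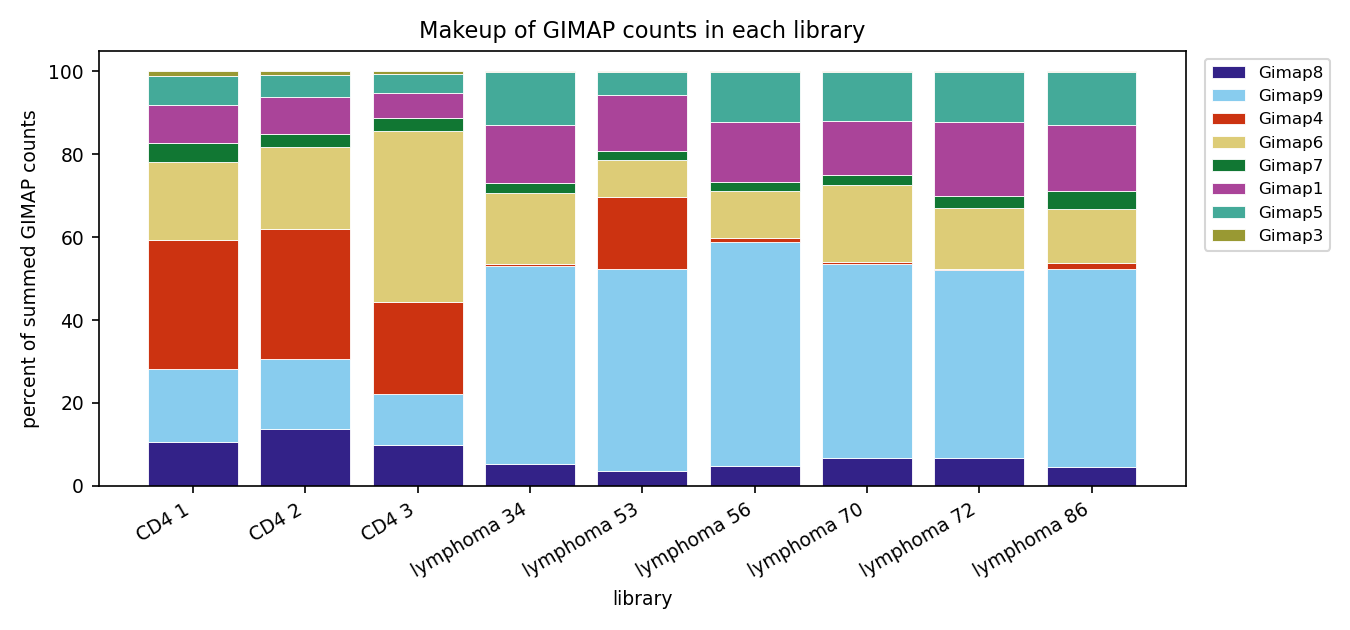
Percent of the summed GIMAP counts taken by each member in every library, CD4 first. Gimap9 takes 12.3 to 17.5% in CD4 and 45.4 to 54.1% in lymphoma, and Gimap4 is visible among lymphomas mainly in lymphoma 53 (17.3%).

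Levels of different members were also set beside each other per kb of annotated exon, a scale made for reads spread along whole transcripts. These libraries read 3′ ends, so the order per kb depends on exon length and may not give the order of transcript numbers. Mean CPM in CD4 was 696 for Gimap4 and 692 for Gimap6, over 1837 and 3496 exonic bases. In CD4 the mean level per kb was highest for Gimap4 (379 CPM per kb), followed by Gimap9 (235), Gimap6 (198), Gimap8 (76.1), Gimap1 (64.3), Gimap7 (39.1), Gimap5 (33.7) and Gimap3 (7.84 CPM per kb). The library ranges of Gimap9 and Gimap6, of Gimap8 and Gimap1, and of Gimap7 and Gimap5 overlapped. Differences between members within a library were not tested. In lymphoma Gimap9 came first (190 CPM per kb), clear of Gimap1 (31.3) and Gimap6 (26.4), and Gimap3 came last (0.318 CPM per kb). From Gimap1 down to Gimap7 (7.70 CPM per kb), each lymphoma range overlapped that of the next gene in the order.

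Along the chromosome, the change did not run evenly through the cluster. Log2 fold changes in gene order were -3.02 (Gimap8), -0.31 (Gimap9), -5.34 (Gimap4), -2.91 (Gimap6), -2.34 (Gimap7), -1.04 (Gimap1), -0.92 (Gimap5) and -4.60 (Gimap3). Of the 5 table genes before Gimap8, 3 were tested: Repin1, a zinc finger gene 48.2 kb away, rose by 3.16 (SE 0.584, edgeR adjusted p 0.000980), and AI854703, 13.5 kb away, rose by 1.93 (SE 0.563, edgeR adjusted p 0.0147). Zfp775 between them changed by 0.50 (SE 0.332, edgeR adjusted p 0.242). After Gimap3, the membrane protein genes Tmem176b and Tmem176a, 63.0 and 70.1 kb away, had log2 fold changes of -2.21 (SE 0.337, edgeR adjusted p 0.00025) and -2.63 (SE 0.666, edgeR adjusted p 0.00666). The other 5 of these 10 neighbours (Gm5111, Rarres2, Aoc1, 1600015I10Rik and Gm24348) had at most 17 counts in any library and were not tested.

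**Figure D3:**
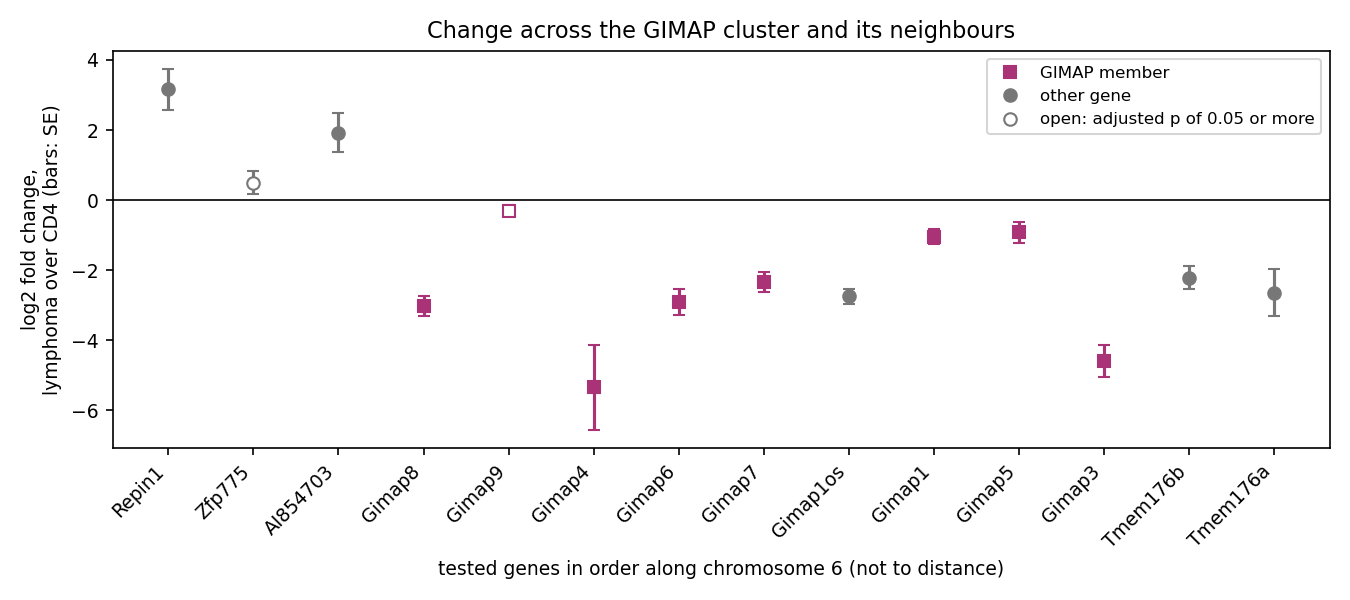
Log2 fold change of lymphoma over CD4 (points, with SE as bars) for tested genes in their order along chromosome 6, not to distance; squares are GIMAP members, circles other genes, and open symbols have an edgeR adjusted p of 0.05 or more. Members lie between -5.34 and -0.31, and the tested genes before Gimap8 lie above 0.

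Genes whose pattern was most like the mean log2 CPM of the 8 members were ranked among 9417 other genes with an average log2 CPM of at least 3, as a description. Over the 9 libraries these were Cd40, Pou2f2, Il2ra, Phc3 and Il16, with Pearson r of 0.996, 0.996, 0.995, 0.994 and 0.994. The difference between groups carries most of such an r: all 5 were lower in lymphoma, with log2 fold changes from -7.92 (Il2ra) to -1.56 (Phc3). Without CD4 1 and CD4 3, the libraries farthest from the median, r was 0.987 to 0.994. CD4 2 was then the only CD4 library left, so the difference between groups still set r, and this r is no check of the likeness. Spearman rho over the 9 libraries was 0.862 to 0.933. Over the 6 lymphomas alone the most alike genes were Hnrnpf, Cpeb4, Rnft1, Ttc3 and Adcy1 (r 0.979 to 0.990, rho 0.886 to 1.0). Their r was 0.963 to 0.996 over the 4 lymphomas left without 53 and 70. These genes were picked by r with the same lymphomas, so the second r is no separate check.

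Other genes of lymphocyte survival were set beside the GIMAP change, where 24.7% of all tested genes were called higher and 21.9% lower. In the BCL2 family, whose members GIMAP proteins have been reported to bind, 3 of 16 tested genes rose and 4 fell, with a median log2 fold change of 0.03. Bcl2, the survival factor of resting T cells, fell by 3.97 on the log2 scale (SE 0.650, edgeR adjusted p 0.000842), from 481 CPM to 30.5 CPM, and Bax, a death effector, rose by 1.37 (SE 0.502, edgeR adjusted p 0.0413). Bax no longer passed without lymphoma 56 or any single CD4 library, with upper quartile scaling, with limma voom or at a threshold of 0.01. Without lymphoma 53 the rise of Bax shrank to 0.87 and still passed (edgeR adjusted p 0.0238). Leaving out 1 library gave 1 to 3 rises and 2 to 5 falls in this family. In the IL-7 receptor pathway, which keeps naive T cells alive, 10 of 14 genes fell and 1 rose (median -1.08), and without lymphoma 53 a total of 3 rose. Cish, a feedback inhibitor of cytokine signalling, had the largest fall there (-5.47, SE 0.698, edgeR adjusted p 6.73e-05, and -6.09 without lymphoma 70). Its level was 12.4 to 20.1 CPM in CD4 and 0 to 1.04 CPM (at most 17 counts) in lymphoma. Cish was not tested when at least 10 counts were required in every library. The kinase gene Akt1 rose by 1.41 (SE 0.250, edgeR adjusted p 0.000717).

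Among ATG8 proteins and autophagy partners, the set that holds the Gimap6 partner, 2 of 15 genes rose, 3 fell and 10 passed no test (median -0.19). The shares over all tested genes were 24.7% higher and 21.9% lower. Atg7, an activating enzyme of the pathway, rose by 0.96 (SE 0.246, edgeR adjusted p 0.00731), and the cargo receptor Sqstm1 changed by -0.68 (SE 0.209, edgeR adjusted p 0.0185), a call lost without CD4 3, with lymphomas 34, 70 and 72 averaged and at a threshold of 0.01. Leaving out 1 library gave 0 to 4 falls in this list. The interferon-induced IRG and GBP families are other large sets of immune GTPases, and their list here also held Mx1 and Mx2. All 14 tested of 18 listed were lower (median -3.04). The filter on low counts can keep a gene expressed in CD4 alone, which can then only be lower. With at least 10 counts required in every library, 9 were called lower. The largest fall was at Iigp1 (-5.33, SE 0.849, edgeR adjusted p 0.000609, and -6.14 without lymphoma 86). No test of one list against another was made.

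**Figure D4:**
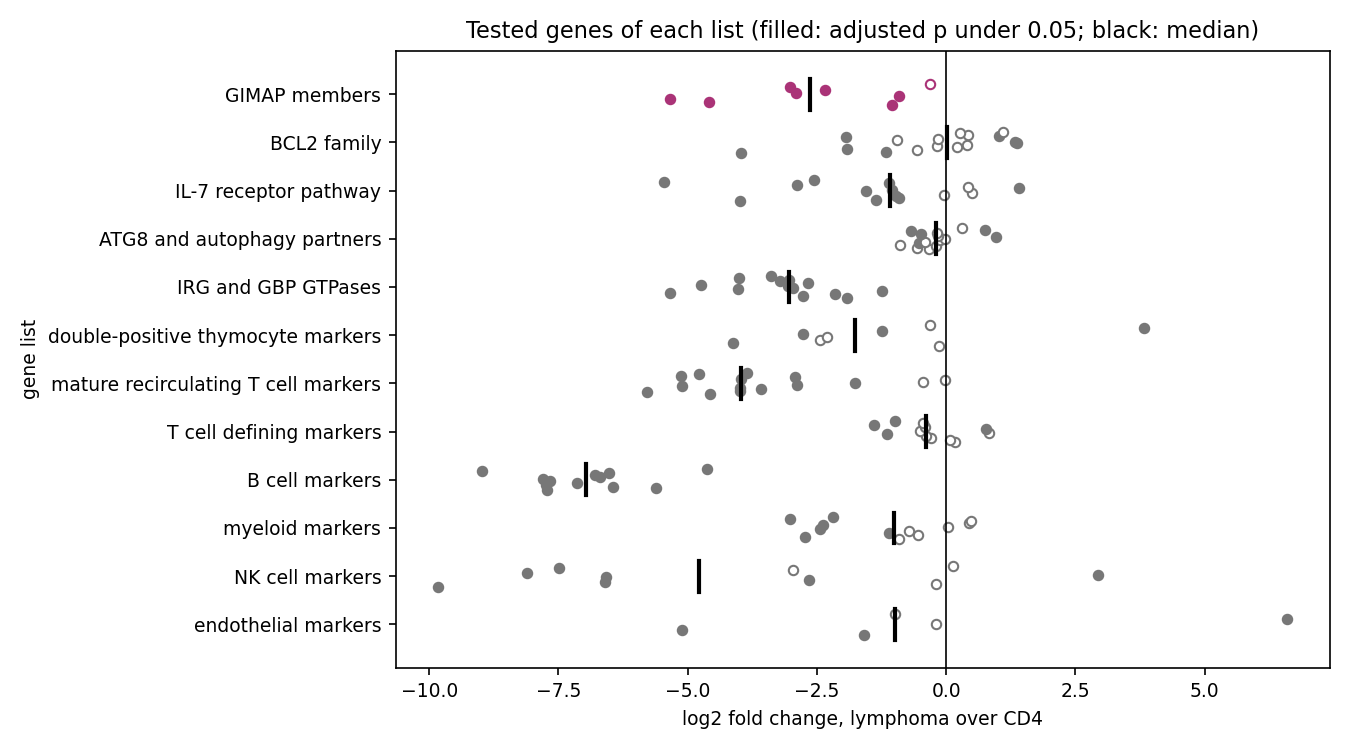
Log2 fold change of lymphoma over CD4 for each tested gene of the GIMAP family (purple) and of 11 other lists (grey); filled points have an edgeR adjusted p under 0.05 and black bars are medians. The GIMAP median is -2.62, and those of the IRG and GBP GTPases (a list that also holds Mx1 and Mx2) and of mature recirculating T cell markers are -3.04 and -3.97. The mature recirculating list shares Bcl2, Il7r, Foxo1 and Cd5 with other lists.

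Markers of cell types and stages were measured beside these changes, and their counts stand beside 21.9% of all tested genes called lower and 24.7% higher. T cell defining markers were present in both groups (summed 2753 to 4872 CPM in lymphoma, 3980 to 4257 CPM in CD4), and of 12 markers 8 passed no test, 3 fell and 1, the T cell receptor signalling gene Zap70, rose (0.77, SE 0.173, edgeR adjusted p 0.00330). Of 15 markers of mature recirculating T cells, 13 fell and 0 rose (median -3.97), led by the egress receptor gene S1pr1 (-5.80, SE 0.311, edgeR adjusted p 2.05e-07). This list is not separate from the others. It shares Bcl2 with the BCL2 family, Il7r and Foxo1 with the IL-7 receptor pathway, and Cd5 with the T cell defining markers. Of 12 double-positive thymocyte markers, 8 were tested, 3 fell and 1 rose (median -1.77). The list holds Cd4, the marker by which the control cells are labelled, so its level in CD4 reflects the choice of control. Dntt, which adds bases at receptor joints, fell most (-4.12, SE 0.750, edgeR adjusted p 0.000844). Its level was low in both groups, 6.00 to 12.5 CPM in CD4 and 0 to 1.19 CPM (at most 13 counts) in lymphoma. Dntt was not tested when at least 10 counts were required in every library. Aqp11 rose by 3.82 (SE 1.10, edgeR adjusted p 0.0168). The groups overlapped at Aqp11 (0.365 to 52.1 CPM in lymphoma, 1.74 to 2.64 CPM in CD4), and it no longer passed without any single CD4 library, with no filter, with limma voom or at a threshold of 0.01. Rag2 was at 0 in all lymphomas, and Rag1 and Ptcra were at 0 in all CD4 libraries.

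B cells also make GIMAP proteins, and their markers differed between the groups. All 12 B cell markers fell, beside 21.9% of all tested genes called lower and 24.7% higher. With at least 10 counts required in every library, 3 B cell markers were called lower. Their summed level was 23.6 to 66.9 CPM in lymphoma and 2251 to 2373 CPM in CD4 over all 12. The largest fall was that of Fcer2a, which had at most 3 counts in a lymphoma and 40.1 CPM in CD4. NK cell markers summed to 345 to 847 CPM in lymphoma and 241 to 273 CPM in CD4, with 6 of 10 lower (1 with at least 10 counts in every library) and 1 higher. The higher one was Gzma (2.93, SE 0.288, edgeR adjusted p 1.03e-05), whose mean level of 518 CPM in lymphoma and 67.8 CPM in CD4 made up most of the sum in lymphoma, while Ncr1 and Gzmb were at 0 in all lymphomas. Endothelial markers summed to 77.8 to 104 CPM in lymphoma and 197 to 210 CPM in CD4. Of these 12 markers 5 were tested, 2 were lower and 1, Egfl7, was higher (6.60, SE 0.511, edgeR adjusted p 1.76e-06, and 7.67 without CD4 3). Kdr had the largest fall (-5.11, SE 1.05, edgeR adjusted p 0.00186, and -6.27 without lymphoma 56). Egfl7 had at most 5 counts in a CD4 library, and Kdr at most 6 in a lymphoma. With at least 10 counts required in every library, 0 endothelial markers were called higher and 1 lower. Of the endothelial markers, Cdh5, Sox17 and Cldn5 were at 0 in all lymphomas and Tek and Cldn5 in all CD4 libraries. Myeloid markers summed to 68.7 to 2199 CPM in lymphoma and 708 to 828 CPM in CD4, with 6 of 12 lower, led by Tyrobp (-3.02, SE 0.517, edgeR adjusted p 0.000878). The part of these other cells in the fall of the GIMAP genes was not tested.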

How the data were processed

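RNA 3′ ends were sequenced in 6 lymphoma and 3 CD4 libraries. The deposited table gives raw read counts per Ensembl gene, and the submitters' processing notes name FastQC, HISAT2, SAMtools and HTSeq and the build mm10 or GRCm38. Tool versions, annotation release and strand setting are not given in the sources used here. The 5 closing rows that name no gene entered neither library sizes nor tests, which left 38.7 to 49.1% of all reads in genes in lymphoma and 27.8 to 35.0% in CD4. Reads in several genes or places were not in any gene's count, ambiguous reads making up 3.74 to 5.07% in lymphoma and 4.69 to 5.96% in CD4. Reads with no unique alignment made up 16.1 to 18.6% in lymphoma and 11.6 to 14.0% in CD4, ranges that did not meet. No pair of libraries in a group agreed within sampling noise (smallest chi-square per degree of freedom 19.8, lymphomas 70 and 72).

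Counts were tested in 1 fit of all 9 libraries with edgeR 4.0.16 (R 4.3.3): filterByExpr with a minimum count of 10 (15401 genes), TMM, robust glmQLFit and glmQLFTest, no covariate, Benjamini-Hochberg adjustment over all tested genes and a threshold of 0.05. SE is the absolute log2 fold change over the square root of F. log2 CPM used a prior count of 2. The procedure was tested on simulated data. Shares were compared by exact permutation over 84 assignments (scipy 1.17.1). Coding sequences were aligned with Biopython 1.88. GENCODE M21 matched 45229 of 46078 IDs. Alternatives were RLE, upper quartile, library size alone, no filter, a stricter filter, DESeq2 1.42.0, limma 3.58.1 voom, no robust fit, a threshold of 0.01, leaving out each library, and averaging lymphomas 34, 70 and 72.

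Named genes were all members, other rows starting with Gimap, the largest rise and fall past the threshold in each of 11 lists, 5 table genes on each side of the cluster, and the 5 genes most alike in pattern. The result for 1 gene under this rule is not reported here. Members and lists were chosen with earlier results of these data known. Gm28053 was named for its overlap with members. Counting limits cover counting error only, because reads that carry no molecular identifier may be copies of one molecule.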

Additional observations from a re-analysis of the deposited data

Results flagged for a closer look

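Among the 6 lymphomas, 18 values (the level of each member, of Gimap1os and of the sum, and the share of each member) were screened with Dixon's test for a single distant library. Chance marks about 1 in 20, or 0.9 here. The screen marked 6. Gimap4 stood at 80.9 CPM in lymphoma 53, beside 1.51 to 9.46 CPM in the others, and made up 17.3% of its GIMAP counts, beside 0.207 to 1.39%. Gimap5 stood at 26.1 CPM in lymphoma 53, beside 73.6 to 90.6 CPM, and made up 5.60% of its GIMAP counts, beside 11.9 to 12.7%. Gimap1os stood at 48.0 CPM in lymphoma 70, beside 26.2 to 32.5 CPM. Gimap7 made up 4.36% of the GIMAP counts of lymphoma 86, beside 2.17 to 2.85%. The values are not independent, since shares use the same counts as levels.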

How the results depend on the processing

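The direction of all 8 members and the calls of 7 of them were the same under all alternatives that could be run, which were 19 for each member and 18 for Gimap3, since it does not have 10 counts in every library. The exception was Gimap5, which did not pass at a threshold of 0.01 (log2 fold change -0.92) and ranged from -0.99 to -0.75 with 1 library left out. The number of members called lower was 6 or 7, and that of all genes ranged from 4915 at a threshold of 0.01 to 8137 without lymphoma 53. With 1 library left out, the difference in share (percentage points, lymphoma minus CD4) ranged over -6.84 to -4.96 for Gimap8, 31.2 to 33.8 for Gimap9, -27.8 to -23.2 for Gimap4, -16.6 to -5.37 for Gimap6, -1.25 to -0.465 for Gimap7, 5.78 to 7.33 for Gimap1, 4.94 to 6.61 for Gimap5 and -0.826 to -0.594 for Gimap3. The adjusted p of the 6 passing shares was 0.0816 to 0.0952 without a CD4 library, where 2 such libraries allow no exact permutation p under 0.0714. Adding Gimap3 and Gimap5 together changed no call of the other members. The summed pair did not pass (4.79 percentage points, exact permutation, adjusted p 0.0833), as Gimap5 alone did not, while Gimap3 alone passed. Leaving out members under 10 counts removed 0 members. Upper quartile scaling moved the median log2 fold change of all tested genes from 0.04 to -0.06. With a prior count of 0.5, 3 of the 5 most alike genes over 9 libraries and 4 of the 5 over 6 lymphomas were the same genes. Alternatives for genes outside the family were added after the data were seen. No paired analysis was possible because the groups share no replicate numbers. Depth limits Gimap3 most, with 3 counts in lymphoma 53.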
